A study of Mus musculus with 44 samples.

Results

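Small RNA was compared in the hypothalamus of obese mice that had received an oligonucleotide against miR-132 (AM132) or a control oligonucleotide (AM608), in the 8 libraries labelled batch 3 of the 44 libraries of the series. The batch was chosen by its label, and it holds AM132 replicates 13 to 16 and AM608 replicates 13 to 16. All 8 C57Bl/6J mice had eaten a high fat diet for 11 weeks. AM132 is a locked nucleic acid oligonucleotide of 16 nt complementary to mature miR-132, and AM608 is one of 15 nt complementary to the primate miR-608, for which mice have no predicted match. Both were injected into a vein at 3.3 mg/kg on each of 3 days, and tissue was taken 7 days after treatment. No group here was lean or uninjected, and both groups shared the diet and the locked nucleic acid chemistry. The labels give neither age nor sex, and they number each library as 1 mouse. The comparison asks which small RNAs differ when the oligonucleotide against miR-132 replaces the control.

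A miRNA is a short RNA cut from a hairpin precursor. One arm of the hairpin, 5p or 3p, guides Argonaute proteins to messenger RNAs that pair with its seed, the bases near its 5′ end. An oligonucleotide against a miRNA pairs with the mature strand and keeps it from its targets. miR-132 and miR-212 come from one transcript that neuronal activity induces through CREB, and both shape dendrites and synapses. tRNA fragments (tRFs) are pieces of transfer RNAs. 5′-halves and 3′-halves arise by cleavage in or next to the anticodon loop, for instance by angiogenin under stress, 5′-tRFs and 3′-tRFs hold one end of the tRNA, and internal fragments (i-tRFs) hold neither end.

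The miRNAs on which the results turn are shown with the seed, bases 2 to 8, in capitals. The sequences are those of RefSeq on GRCm38.p6, which gave a mature sequence for 42 of the 47 miRNAs named by the rule for named features. The first 4 are the arms of the targeted cluster, the next 6 had the smallest p values, and the last is named in the study's title.
miR-132-3p: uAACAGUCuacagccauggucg
miR-132-5p: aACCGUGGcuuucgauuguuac
miR-212-3p: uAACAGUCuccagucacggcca
miR-212-5p: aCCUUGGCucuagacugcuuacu
miR-204-5p: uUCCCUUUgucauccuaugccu
miR-377-3p: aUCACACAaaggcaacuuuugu
miR-582-3p: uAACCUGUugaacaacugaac
miR-409-5p: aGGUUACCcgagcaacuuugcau
miR-101a-3p: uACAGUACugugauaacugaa
miR-382-3p: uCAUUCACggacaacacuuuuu
miR-194-5p: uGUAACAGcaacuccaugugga
miR-132-3p and miR-212-3p have the same seed, AACAGUC. The other miRNAs shown each have a seed of their own.

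The tRFs on which the results turn are shown as the deposited table gives them, 5′ to 3′ in DNA letters, with the anticodon in capitals where the whole of it is inside the fragment. The first pair are the 2 sequence forms of the 50 nt LysCTT fragment. The others are the 7 further tRFs of smallest p beside the 49 nt LysCTT fragment, and the most abundant of the HisGTG fragments described.
tRF-50-PSQP4PW3FJIKE7UMKKSW, LysCTT: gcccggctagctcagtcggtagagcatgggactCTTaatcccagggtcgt
tRF-50-PSQP4PW3FJI0E7UM8KSW, LysCTT: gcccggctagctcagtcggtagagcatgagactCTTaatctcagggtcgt
tRF-36-R9J89O9NF5W8E70, GlnCTG: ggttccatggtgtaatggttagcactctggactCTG
tRF-33-Y694U47P299D03, GlnCTG: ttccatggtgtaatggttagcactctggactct
tRF-35-9EYK46SQYU9H93, LeuTAG: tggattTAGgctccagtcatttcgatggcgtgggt
tRF-35-9EYK46S9Y81H93, LeuTAG: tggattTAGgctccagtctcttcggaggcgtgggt
tRF-33-86J8WPMN1E8Y0E, GluTTC: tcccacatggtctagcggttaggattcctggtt
tRF-32-RLVIJKS2PNXIM, CysGCA: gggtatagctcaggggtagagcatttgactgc
tRF-30-MEF91SS2PMFI, LysTTT: cggatagctcagtcggtagagcatcagact
tRF-34-6SXMSL73VL4YHE, HisGTG: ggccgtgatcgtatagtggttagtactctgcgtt
The LysCTT forms differ at 2 bases, A29G and T41C, counted from the 5′ end with the A29 form as the reference. Fragments of one tRNA overlap, so they are not separate results.

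The 8 libraries held 3025115 to 4867103 miRNA counts and 119463 to 221358 tRF counts, and the median of each was alike in both groups, at 4168310 miRNA counts in AM132 and 4182222 in AM608. Of 1978 miRNAs listed 532 were tested, and of 17051 tRFs 544, which held 95.9% of tRF counts. The fits tested on simulated data recovered 89% of miRNAs and 43.3% of tRFs changed by 1 on the log2 scale, and 97% and 96.9% of those changed by 2. The simulation changed 100 of 527 miRNAs by 1 and 100 by 2, and 97 and 98 of 521 tRFs. It also called 5 unchanged miRNAs and 7 unchanged tRFs. A changed part that large eases the adjusted threshold, so these rates do not give the power of the real comparison. Neuronal miRNAs led in all 8 libraries, with miR-128-3p at 164749 CPM and miR-9-5p at 129916 CPM on average. The summed share of the 18 neuronal miRNAs was 35.6 to 39% in AM132 and 35.5 to 39.8% in AM608. On the first principal component of the tRF table, with 53.2% of its variance, AM132 15 (21.8) and AM608 13 (-16.1) lay at the ends. In the tRF table AM132 13 lay with AM608 for the long LysCTT fragments described later.

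The targeted miRNA was lower in AM132 by no more than the spread between libraries. miR-132-3p stood at 792, 1183, 1089 and 826 CPM in AM132 13 to 16, and at 1108, 1020, 1291 and 1016 in AM608 13 to 16. AM132 13 and AM132 16 lay below every AM608 library, while AM132 14 and AM132 15 lay among them. On the log2 scale AM132 averaged 9.90 ± 0.29 CPM and AM608 10.11 ± 0.16 (SD, 4 libraries each), which puts AM132 apart by -0.20 (exact permutation, 2-sided p = 0.257; 4 against 4 libraries allow 0.0286 at the least). In the edgeR fit its log2 fold change was -0.19 ± 0.15 (SE), adjusted p = 0.921. In the fit of all 32 AM132 and AM608 libraries batch 1 gave -0.17 ± 0.30, batch 2 gave -0.74 ± 0.22 and batch 3 gave -0.19 ± 0.30. Batch 3 differed from the mean of the other two batches by 0.26 ± 0.36 (adjusted p = 0.987 in edgeR), a value too imprecise to call the batches alike.

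The other arms of the cluster had log2 fold changes from -0.32 to 0.01, and none passed. miR-132-5p, the strand opposite the target, had 1282, 2350, 2290 and 1778 CPM in AM132 and 1985, 2474, 2707 and 2469 in AM608, a log2 fold change of -0.32 ± 0.18. miR-212-5p had 1290, 1706, 1751 and 1552 CPM in AM132 and 1746, 1818, 2080 and 1877 in AM608, a log2 fold change of -0.26 ± 0.11 (unadjusted p = 0.0462, adjusted p = 0.845 in edgeR). In both arms AM132 13 was the lowest library and only the upper AM132 libraries reached the AM608 range. miR-212-3p, which shares the seed of miR-132-3p, had 43, 73.8, 62.2 and 44.7 CPM in AM132 and 55.7, 53.2, 58 and 55.8 in AM608, with a fitted log2 fold change of 0.01 ± 0.18. All 4 arms lie on the plus strand of chromosome 11 of GRCm38.p6, miR-132-3p at chr11:75173723-75173744 and miR-212-3p at chr11:75173443-75173464, inside an intron of 1700016P03Rik, a noncoding gene.

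**Figure D1:**
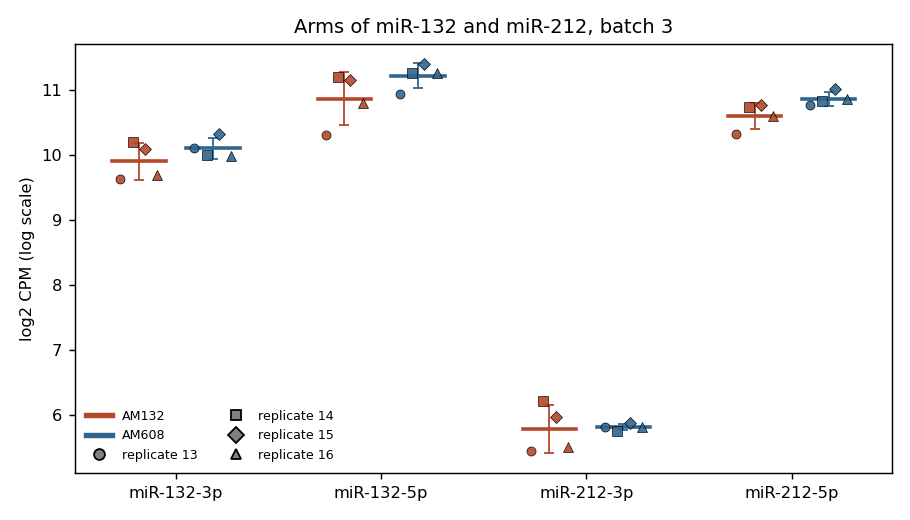
Level of each arm of miR-132 and miR-212 in the 8 libraries of batch 3, as log2 CPM (TMM scaled, prior count 2; log scale). Points are libraries with a marker per replicate number, thick bars are means and thin bars SD (n = 4); the groups overlap in all 4 arms, and AM132 13 is the lowest library in each.

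The ratio of the target arm to its partner needs no scaling between libraries. Counts of miR-132-3p over miR-132-5p gave a log2 ratio of -0.69, -0.99, -1.07 and -1.10 in AM132 and -0.84, -1.28, -1.07 and -1.28 in AM608. The AM132 mean lay above that of AM608 by 0.15 (exact permutation, 2-sided p = 0.314), and the groups overlapped.

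No miRNA passed the test between AM132 and AM608. Of 532 tested 0 passed at an adjusted p of 0.05 in edgeR (0% in each direction; smallest adjusted p = 0.768), and 30 had an unadjusted p under 0.05 (5.64%), 16 of them higher (3.01%) and 14 lower (2.63%). DESeq2 called 0, with 20 at an unadjusted p under 0.05. The groups did not overlap for 8 miRNAs that were higher in AM132 (1.5% of those tested) and 9 that were lower (1.69%), 17 in all (3.2%). The median SE of a log2 fold change was 0.17. Scaling over the miRNA and tRF tables joined moved the median of all miRNAs from -0.00 to 0.07 and that of all tRFs from -0.02 to -0.11, so values of that size have no firm direction.

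miR-204-5p had the smallest p. It lies in an intron of Trpm3 at chr19:22750610-22750631, plus strand, and is abundant in the choroid plexus and the retinal pigment epithelium. It had 1389, 2018, 1518 and 1361 CPM in AM132 and 2125, 2542, 2071 and 2243 in AM608. Every AM132 library lay below every AM608 library, with AM132 14 closest. The mean was 1571 ± 305 CPM against 2245 ± 210 (SD, n = 4 each). The log2 fold change was -0.51 ± 0.14 (p = 0.00357, adjusted p = 0.768 in edgeR). In the fit of 32 libraries, which shares the spread of 3 batches, this batch 3 effect passed (-0.51 ± 0.10, adjusted p = 0.0131; 1 of 611 miRNAs called lower, 0.164%).

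On the choroid plexus and ciliated cell list, the miR-204 and miR-211 arms had negative fold changes and the miR-34b and miR-34c arms positive ones. miR-211-5p, which has the same seed family as miR-204, stood at -0.74 ± 0.38 on the log2 scale. It had few counts, 3 to 15 per library in AM132 and 14 to 19 in AM608. miR-204-3p stood at -0.43 ± 0.28. The groups overlapped in both, and neither passed (adjusted p = 0.867 each in edgeR). miR-34b-3p, from a miRNA family abundant in ciliated cells, had 13.3, 17.2, 24 and 8.95 CPM in AM132 and 10.7, 9.7, 9.17 and 8.2 in AM608, a log2 fold change of 0.76 ± 0.27 (adjusted p = 0.768 in edgeR). AM132 15 was the highest library and AM132 16 lay within AM608. miR-34b-5p and miR-34c-5p stood at 0.55 ± 0.42 and 0.47 ± 0.24, with overlap between the groups (adjusted p = 0.921 and 0.867 in edgeR). Of 6 tested members of the list 3 were higher and 3 lower, with a median of 0.02, against -0.00 over all miRNAs tested. Arms of one precursor are not separate results. The summed share of the list was 0.143 to 0.227% in AM132 and 0.212 to 0.263% in AM608, with 1 of its 10 markers at 0 in all 8 libraries.

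Several of the next miRNAs in rank come from the imprinted Dlk1-Dio3 region of chromosome 12, which encodes a large cluster of miRNAs and is active in neurons. miR-409-5p, from an intron of Mirg at chr12:109743172-109743194, had 351, 279, 407 and 294 CPM in AM132 and 256, 224, 273 and 242 in AM608. All AM132 libraries were above all AM608 libraries, and the log2 fold change was 0.42 ± 0.14. miR-382-3p, also from Mirg, had 696, 602, 664 and 495 CPM in AM132 against 583, 323, 409 and 383, with AM608 13 reaching into the AM132 range (0.53 ± 0.18). miR-136-3p, named through its list and not by its rank, lies opposite an exon of Rtl1. It had 2081, 1799, 2013 and 1801 CPM in AM132 and 1773, 1477, 1592 and 1705 in AM608, without overlap (0.23 ± 0.09). miR-377-3p, from an exon of Mirg, went the other way, with 12, 16.3, 15.2 and 14.8 CPM in AM132 against 20.4, 23, 18.1 and 20.1 in AM608, also without overlap (-0.48 ± 0.15). None of these 4 passed (adjusted p = 0.768 each in edgeR). The Dlk1-Dio3 list holds miR-136-3p and miR-377-3p but not miR-409-5p and miR-382-3p. Of its 36 tested members 17 were higher and 19 lower, with a median of -0.04 (0.04 with scaling over both tables). Of the 36, 2 had an unadjusted p under 0.05 in edgeR, against 5.64% of all 532 miRNAs tested. The groups did not overlap for 2 of the 36, against 3.2% of all tested, so the list was near the rate of all miRNAs.

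miR-582-3p, from an intron of Pde4d, had 53.6, 64.7, 63.6 and 42 CPM in AM132 and 48.3, 38.2, 28.2 and 29.9 in AM608 (log2 fold change 0.63 ± 0.20). The groups overlapped through AM132 16 and AM608 13. miR-101a-3p, a repressor of the histone methyltransferase EZH2, had 3853, 2965, 2970 and 3069 CPM in AM132 and 2755, 2425, 2721 and 2422 in AM608, without overlap (0.32 ± 0.11). AM132 13 stood above the other AM132 libraries. miR-499-5p, encoded in an intron of the myosin gene Myh7b, had 42.5, 33.3, 38.5 and 49.9 CPM against 25.4, 27, 31.4 and 35.4 (0.46 ± 0.16). miR-1249-3p had 59.5, 71.1, 59.7 and 57.8 CPM against 96.8, 80.6, 68.5 and 75.9 (-0.37 ± 0.14). In both of these the groups overlapped by 1 library each, and none of the 4 passed (adjusted p = 0.768 each in edgeR).

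**Figure D2:**
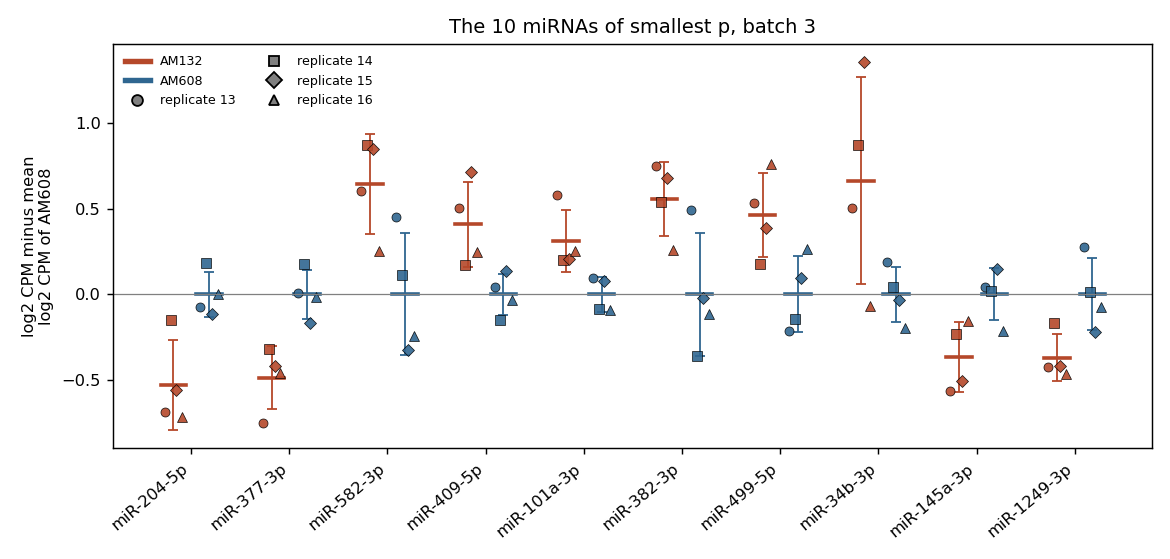
The 10 miRNAs of smallest p among those with a mean of at least 10 CPM, as log2 CPM of each library minus the mean log2 CPM of AM608. Points are libraries, thick bars means and thin bars SD (n = 4); the groups are apart for miR-204-5p, miR-377-3p, miR-409-5p and miR-101a-3p, and overlap for the other 6.

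Vascular miRNAs had negative fold changes, though none passed. All 8 tested members of the endothelial and mural list had a negative log2 fold change, from -0.43 to -0.05 with a median of -0.20, against -0.00 over all 532 miRNAs, of which 267 were negative; 7 of the 8 were negative with scaling over both tables (median -0.13). miR-143-3p, a miRNA of smooth muscle and pericytes, had 5378, 7250, 5208 and 6474 CPM in AM132 and 8259, 8120, 10473 and 5963 in AM608 (-0.43 ± 0.17, adjusted p = 0.768 in edgeR). AM608 16 was the lowest AM608 library and lay among AM132. Its cluster partner miR-145a-3p had 195, 246, 203 and 259 CPM against 297, 293, 320 and 249 (-0.36 ± 0.13). The endothelial miR-126a-3p and miR-126a-5p stood at -0.11 and -0.13, and miR-221-3p and miR-222-3p at -0.05 and -0.12. The 8 members are arms of miR-126a, miR-143, miR-145a, miR-221 and miR-222, and arms of one precursor are not separate results. The summed share of the list was 2.8 to 3.16% in AM132 and 3.22 to 3.86% in AM608. In bulk tissue fewer cells of a type and less RNA per cell cannot be told apart.

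Blood miRNAs followed one library. All 5 erythroid miRNAs had negative log2 fold changes (-0.40 to -0.07), but miR-451a had 1297 CPM in AM608 16, against 242, 277 and 251 in the other AM608 libraries and 263 to 477 in AM132. Without AM608 16 the log2 fold change of miR-451a was 0.62. miR-144-3p, from the same cluster, had 283 CPM in AM608 16 and 47.9 to 63.8 in the other AM608 libraries. Liver-specific miR-122-5p had 12.5, 18.7, 18.7 and 21.7 CPM in AM132 against 17.7, 30.5, 23.7 and 32 in AM608 (-0.54 ± 0.23, adjusted p = 0.781 in edgeR). AM608 16 was the highest with AM608 14 close to it, so miR-122-5p did not follow 1 library. The part of blood RNA in these values was not tested.

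The epithelial miR-200b-3p varied widely between libraries. It had 53.9, 49.8, 2.76 and 26.2 CPM in AM132 and 5.16, 24.4, 2.99 and 19.8 in AM608, so that both groups spanned a wide range (1.38 ± 0.79, adjusted p = 0.867 in edgeR). Of 9 tested members of the pituitary and epithelial list 7 were higher, with a median of 0.51, and none passed. Of the 7, miR-200a-3p, miR-200b-3p and miR-429-3p were highest in AM132 13 and AM132 14. miR-200c-3p, miR-182-5p, miR-183-5p and miR-96-5p lay above the AM608 range only in AM132 14. The 7 thus followed the same libraries and are not separate results. The pituitary marker miR-375-3p stood at -0.05, and miR-7a-2-3p had 78.5, 97.8, 94.5 and 66.4 CPM against 109, 91.7, 105 and 110 (-0.30 ± 0.14). The list held 0.0229 to 0.051% of counts in AM132 and 0.0211 to 0.0344% in AM608. The part of tissue next to the hypothalamus in these values was not tested.

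The remaining lists were near level, and scaling over both tables turned the medians of the neuronal, energy-balance, astrocyte and myeloid lists positive (0.02 to 0.06). Neuronal miRNAs had a median log2 fold change of -0.05 over 18 tested members (7 higher, 11 lower), energy-balance miRNAs -0.02 over 15, oligodendrocyte miRNAs 0.04 over 5 (all 5 positive, 0.01 to 0.16), astrocyte miRNAs -0.05 over 4 and myeloid miRNAs -0.03 over 8. The muscle list had a median of 0.14 over 4 and the Hox-linked list -0.12 over 2. Among let-7 arms, 7 of 9 guide arms were positive (median 0.03) and 9 of 11 passenger arms negative (median -0.07; 6 of 11 with scaling over both tables), and the miR-17/92 clusters stood at 0.02 over 10. None of these members passed.

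Neither the lipid-related miRNAs nor the miRNA of the study's title passed the test. miR-194-5p, which is abundant in liver and gut, had 236, 246, 241 and 232 CPM in AM132 and 234, 226, 283 and 303 in AM608, and its fitted difference was -0.13 ± 0.12 on the log2 scale (adjusted p = 0.921 in edgeR). The AM132 libraries lay close together, and AM608 held both the lowest and the highest value. Its neighbour miR-192-5p stood at 0.01 ± 0.09. miR-103-3p, which regulates insulin sensitivity, had 3104, 2397, 2773 and 2385 CPM against 2385, 2036, 2478 and 2142 (0.24 ± 0.11), and miR-27b-3p, which targets lipid genes, stood at 0.16 ± 0.09. Over 14 tested members of the lipid list, which also holds miR-122-5p, 6 were higher and 8 lower, with a median of -0.03 (0.04 with scaling over both tables). The list took 11.3 to 11.7% of miRNA counts in AM132 and 11.9 to 12.6% in AM608, without overlap. The share of the endothelial and mural list did not overlap either (2.8 to 3.16% against 3.22 to 3.86%). A summed share follows the most abundant members of a list, and the difference in these shares was not tested.

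The shares of all 5 fragment types were compared. 5′-tRFs took 19.73, 30.88, 46.43 and 20.94% of tRF counts in AM132 and 14.56, 17.33, 17.53 and 17.99% in AM608, without overlap. The difference of 12.64 percentage points had the smallest p that 4 against 4 libraries can give (exact permutation, 2-sided p = 0.0286; adjusted over the 5 types, 0.143). i-tRFs took 48.06, 32.04, 21.45 and 41.62% in AM132 and 58.48, 49.17, 50.39 and 43.54% in AM608, a difference of -14.60 points (exact permutation p = 0.0571, adjusted 0.143), where AM132 13 reached above AM608 16. No type passed the adjusted test, and 5′-halves, 3′-tRFs and 3′-halves overlapped between the groups (adjusted exact p = 0.607, 0.286 and 0.857). The log2 ratio of all tRF counts to all miRNA counts averaged -4.74 in AM132 and -4.67 in AM608 (exact permutation p = 0.771).

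**Figure D3:**
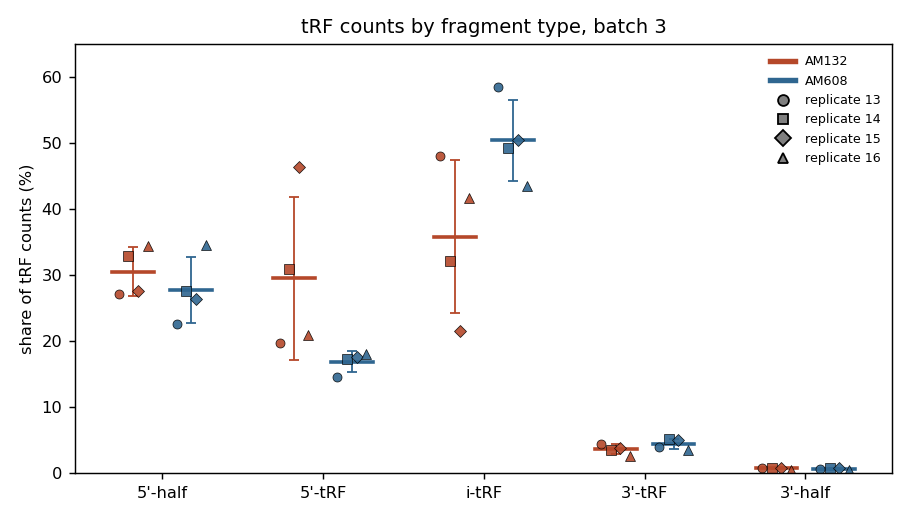
Share of tRF counts in each of the 5 fragment types, in percent, for the 8 libraries of batch 3. Points are libraries, thick bars means and thin bars SD (n = 4); 5′-tRFs are the type in which all AM132 libraries lie above all AM608 libraries.

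The differences were recomputed without fragments of 47 to 50 nt. With them left out, 5′-tRFs took 19, 17.9, 23.8 and 15.9% in AM132 and 14, 16.4, 16.4 and 16.7% in AM608, and the groups overlapped. i-tRFs then took 48.7, 38, 30.4 and 44.3% against 58.9, 49.7, 51.1 and 44.2%, and 5′-halves 27.5, 39.2, 39.4 and 36.6% against 22.7, 28, 26.7 and 35.1%. The mean of 5′-halves was then 35.7% in AM132 and 28.1% in AM608, that of 5′-tRFs 19 and 15.9%, and that of i-tRFs 40.4 and 51%, with overlap in each. In AM132 14, AM132 15 and AM132 16 the long fragments were mostly 5′ pieces of LysCTT, a lysine tRNA. These pieces run through the anticodon to the longest length in the table. In AM132 13 and in AM608 most long fragments came from other tRNAs (1547 to 2178 counts, against 12 to 440 from LysCTT).

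These long LysCTT fragments were nearly missing from AM608 and abundant in 3 of 4 AM132 libraries. LysCTT fragments of 47 to 50 nt had 99, 25850, 36958 and 9014 counts in AM132 and 25, 32, 12 and 440 in AM608. They took 0.0829, 14.8, 28.5 and 5.17% of tRF counts in AM132 and 0.0113, 0.0226, 0.00803 and 0.277% in AM608 (largest Wilson 95% interval 28.2 to 28.7%, counting error only). AM132 13 lay below AM608 16, so the groups overlapped. The main species, the G29 form of 50 nt (tRF-50-PSQP4PW3FJIKE7UMKKSW), had 69, 21585, 31295 and 7504 counts in AM132 and 14, 15, 4 and 309 in AM608. Its log2 fold change was 7.69 ± 1.67 (adjusted p = 0.109 in edgeR; 0.00119 in DESeq2). The A29 form of 50 nt (tRF-50-PSQP4PW3FJI0E7UM8KSW) had 4, 1108, 1175 and 433 counts against 2, 1, 0 and 62 (5.59 ± 1.43, adjusted p = 0.137 in edgeR).

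Summed over the other tRNAs, fragments of that length overlapped between the groups. Fragments of 47 to 50 nt from all tRNAs but LysCTT had 1749, 2070, 1965 and 1632 counts in AM132 and 1547, 1706, 2178 and 2109 in AM608. GlyGCC fragments of that length had 1119, 1187, 994 and 1153 counts against 1033, 1188, 1511 and 1549. Glutamate tRNAs had smaller counts that were highest in the AM132 libraries richest in long LysCTT fragments. GluCTC fragments of 47 to 50 nt had 65 counts in AM132 14 and 154 in AM132 15, against 15 and 10 in AM132 13 and AM132 16 and 4 to 6 in AM608, without overlap. GluTTC fragments had 116 and 177 counts in AM132 14 and AM132 15, 22 in each of the other AM132 libraries and 12, 49, 18 and 18 in AM608.

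The 2 LysCTT forms were not present in the same proportion at all lengths. Among 5′ fragments of LysCTT over both groups, the G29 form made up 3.84% at 33 to 34 nt, 13.2% at 35 nt, 24% at 36 nt, 27.5% at 37 to 46 nt and 95.7% at 47 to 50 nt. At 35 nt the share was 9.83 to 15% in the 8 libraries, and at 47 to 50 nt it was 84.1 to 100%. At 37 to 46 nt the groups did not overlap, with 23.4, 38.9, 47.3 and 27% in AM132 and 17.2, 20.2, 19.7 and 15.9% in AM608. The high share of the G29 form among long fragments was thus present in both groups, on few counts in AM608. At 47 to 50 nt AM608 13 to 16 had 16, 16, 4 and 360 counts of the G29 form and 3, 1, 0 and 68 of the A29 form. The most abundant tRF of all, the A29 form of 35 nt, a 5′-half, had 75642, 97554, 66377 and 95761 CPM in AM132 and 82933, 70945, 74752 and 75615 in AM608, a log2 fold change of 0.14 ± 0.30.

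Set against the other batches, the AM608 libraries of batch 3 were low in these fragments. LysCTT fragments of 47 to 50 nt took 0.09 to 14.4% of tRF counts in AM132 and 1.17 to 19.5% in AM608 of batch 1, and 11 to 57.2% and 4.1 to 59.8% in batch 2. In the lean, chow-fed group they took 0.0405 to 44% over batches 2 and 4. The median of AM132 in batch 3 (9.99%) lay within the range of AM132 in batch 1, while AM132 13 lay below that range and AM132 14 and AM132 15 above it. No AM608 library of batches 1 and 2 was as low as any of the 4 of batch 3. Whether the libraries of batch 3 differed in handling between the groups is not given in the labels.

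**Figure D4:**
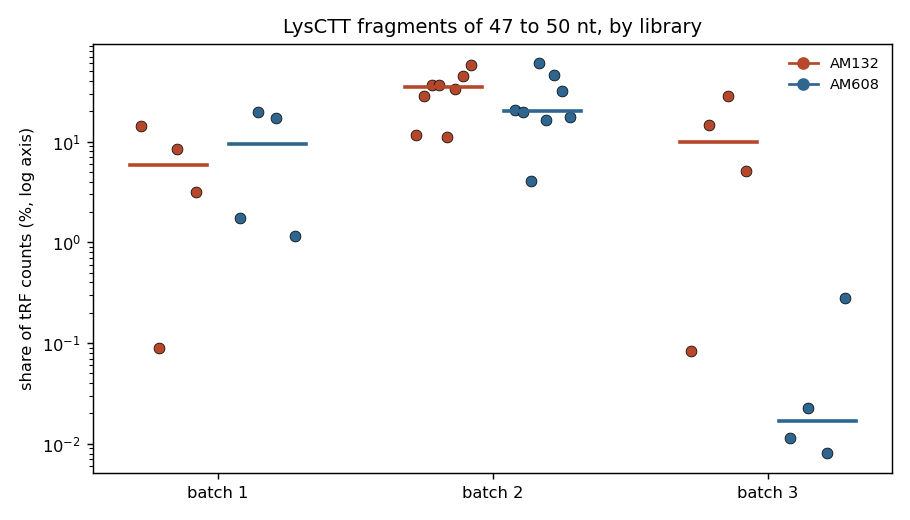
Share of tRF counts in LysCTT fragments of 47 to 50 nt, in percent on a log axis, for each AM132 and AM608 library of batches 1, 2 and 3. Points are libraries and bars are medians; the groups overlap in batches 1 and 2, and in batch 3 the AM608 libraries lie between 0.00803 and 0.277%.

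The effect in batch 3 was set against the mean effect in batches 1 and 2 in one edgeR fit of 32 libraries. Of 754 tRFs 8 had a higher effect in batch 3 (1.06%) and 0 a lower one, and the 8 were all 5′ fragments of LysCTT of 47 to 50 nt. The main species had an effect of -1.17 ± 1.24 in batch 1, of 0.18 ± 0.86 in batch 2 and of 7.53 ± 1.62 in batch 3, a difference of 8.02 ± 1.74 (adjusted p = 0.0129 in edgeR). For 3 of the 8 the AM608 libraries of batch 3 held 0 counts, and their fitted values are no bound. Set against a floor of 3 counts over the group, tRF-47-PSQP4PW3FJIKE7UMKKN was at least 19.8-fold, tRF-50-PSQP4PW3FJIKE7UM8KSW at least 25.4-fold and tRF-48-PSQP4PW3FJI0E7UM8K0D at least 7.85-fold higher in AM132 of batch 3, counted over the pooled group. AM132 13 also held 0 counts of these 3, so the groups overlapped at 0 and the other 3 AM132 libraries carry the bound. It is a bound on pooled counts and does not cover the spread between libraries. The number of calls fell from 8 to 0 without AM608 13 or without AM608 14, and to 5 without AM132 14. No miRNA of 611 had an effect that differed between batch 3 and the others. The closest were miR-582-3p (0.72 ± 0.18) and miR-204-5p (-0.47 ± 0.12), both at an adjusted p of 0.141 in edgeR, followed by miR-764-5p (-0.89 ± 0.26), miR-7b-3p (1.73 ± 0.51) and miR-136-3p (0.29 ± 0.09), each at 0.254.

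Within batch 3 alone no tRF passed in edgeR. Of 544 tested 0 passed (0% in each direction; smallest adjusted p = 0.109), and 60 had an unadjusted p under 0.05 (11%), 35 higher (6.43%) and 25 lower (4.6%). The groups did not overlap for 8 tRFs that were higher (1.47%) and 3 that were lower (0.551%), 11 in all (2.02%). DESeq2 called 6 higher and 1 lower, with 67 at an unadjusted p under 0.05. Its calls were 2 long LysCTT fragments, tRF-36-R9J89O9NF5W8E70, both LeuTAG fragments shown above, tRF-33-86J8WPMN1E8Y0E and, lower, tRF-32-RLVIJKS2PNXIM. In edgeR the count of calls depended on single libraries. It was 7 without AM132 13, 4 without AM608 14, 3 without AM608 16, 2 without AM132 14 or AM132 16, and 0 without AM132 15, AM608 13 or AM608 15.

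A glutamine fragment was among those of smallest p beside LysCTT. The 5′ fragment of GlnCTG that ends at the last base of the anticodon (tRF-36-R9J89O9NF5W8E70) had 2021, 1459, 1784 and 2156 CPM in AM132 and 260, 250, 696 and 912 in AM608. Every AM132 library lay above every AM608 library, at 3.5 times their mean (log2 fold change 1.81 ± 0.43, adjusted p = 0.137 in edgeR, 0.0132 in DESeq2). AM132 13, which had few long LysCTT fragments, was high here. A fragment of the same tRNA that starts at base 3 (tRF-33-Y694U47P299D03) had 255, 170, 101 and 209 CPM against 54.1, 34.8, 69 and 104 (1.48 ± 0.42). Of 10 tested GlnCTG fragments 6 were higher, with a median of 0.45, against -0.02 over all 544 tRFs; 5 were higher (median 0.32) with scaling over both tables, and the median was 0.08 without fragments of 47 to 50 nt. The GluTTC 5′-half of 33 nt (tRF-33-86J8WPMN1E8Y0E) had 1623, 1761, 2571 and 1269 CPM in AM132 and 882, 918, 638 and 919 in AM608, also without overlap (1.10 ± 0.32, adjusted p = 0.219 in edgeR, 0.0321 in DESeq2).

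The LeuTAG fragments run from base 29 to base 63, through the anticodon and the variable arm. The first (tRF-35-9EYK46SQYU9H93) had 1007, 673, 1159 and 252 CPM in AM132 and 162, 264, 247 and 272 in AM608 (1.71 ± 0.43). The other (tRF-35-9EYK46S9Y81H93) had 526, 352, 753 and 86.5 CPM against 59.5, 83.5, 92 and 162 (2.11 ± 0.55). In both AM132 16 lay within the AM608 range while the other AM132 libraries were above it. Neither passed in edgeR (adjusted p = 0.137 each), and both passed in DESeq2 (adjusted p = 0.0174 each).

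A dedicated enzyme adds an extra base at the 5′ end of histidine tRNA, position -1, and 18 of the 43 tested HisGTG fragments start there. The G-1 5′-half of 34 nt (tRF-34-6SXMSL73VL4YHE) had 2344, 4238, 5353 and 4917 CPM in AM132 and 2008, 2441, 667 and 2834 in AM608 (1.08 ± 0.43, adjusted p = 0.392 in edgeR). AM132 13 overlapped AM608. The fragment of 32 nt with T at -1 (tRF-32-XSXMSL73VL4YK) had 203, 189, 245 and 187 CPM against 92, 76.5, 104 and 168, without overlap (0.90 ± 0.35). All 18 tested fragments that start at base -1 had positive log2 fold changes, with a median of 0.41 (17 of 18 with scaling over both tables). So did all 7 tested HisGTG fragments that start at base 1, without the extra base (median 0.43, or 0.32 with scaling over both tables). The positive values were thus not particular to the -1 start, and these fragments of one tRNA are not separate results.

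Of the 25 tRFs lower in AM132 at an unadjusted p under 0.05, 6 began at base 3 of the tRNA and 12 at base 4. The CysGCA fragment of bases 3 to 34 (tRF-32-RLVIJKS2PNXIM) had 45.1, 69.2, 33.8 and 64.9 CPM in AM132 and 244, 195, 138 and 97 in AM608, without overlap (-1.63 ± 0.41, adjusted p = 0.137 in edgeR, 0.0403 in DESeq2), from 4 to 45 counts per library. The LysTTT fragment of bases 4 to 33 (tRF-30-MEF91SS2PMFI) had 143, 81.7, 33.8 and 123 CPM against 611, 236, 247 and 142 (-1.69 ± 0.51), with AM608 13 far above the rest. The LysCTT fragment of bases 4 to 29 (tRF-26-MIF91SS2P4B) had 143, 113, 59.2 and 173 CPM against 617, 216, 219 and 201, without overlap (-1.35 ± 0.46).

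The tRFs were then divided by first base over the whole table, which is given as a description, since it was noticed in these libraries. Of 150 tested tRFs that start at base 1, 114 had a positive log2 fold change (median 0.35). Of 75 that start at base 3, 65 had a negative one (median -0.49), and of 34 that start at base 4, 33 did (median -0.94). Of 37 that start at base 2, 31 were negative. Not every tRNA followed: at base 1, 5 GluCTC fragments were positive and 6 negative (median -0.06), and 8 GlyGCC fragments positive and 7 negative (median 0.09). Over all 544 tested tRFs 263 were positive and 281 negative. Scaling over both tables left 104 positive at base 1, and 65 and 33 negative at bases 3 and 4. The medians kept their sign without any one library, and were smallest in size without AM132 15 (0.25 at base 1) and without AM608 13 (-0.22 at base 3 and -0.56 at base 4).

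The share of counts by first base was also taken within single tRNAs. Of LysCTT counts in fragments shorter than 47 nt, those that start at base 1 made up 45.4, 60.2, 70.3 and 48.6% in AM132 and 32.4, 42.3, 43.3 and 48.2% in AM608. Those that start at base 3 made up 36.9, 26.7, 19 and 34% against 45.6, 39.4, 38 and 36.1%. In LysCTT AM132 15 and AM132 14 had the highest share at base 1, and AM608 13 the lowest. In LysTTT the share at base 1 was 27, 46.5, 51.8 and 36% against 21, 29.8, 29.2 and 29%, and in GluCTC it was 62.4, 72.7, 80.6 and 66.2% against 55.6, 60.8, 60.6 and 68.5%. GlyGCC had 45.5, 51.6, 59.3 and 51.2% against 47, 46.6, 39.9 and 50.7%, and HisGTG at base -1 had 23.4, 30.2, 47.5 and 24.7% against 18, 22.8, 14.7 and 23.7%. The groups overlapped in all 5 tRNAs, with AM132 15 highest in each. The lowest library was AM608 13 in LysCTT, LysTTT and GluCTC and AM608 15 in GlyGCC and HisGTG. The part of AM132 15 and of AM608 13, which also lie at the ends of the first principal component, was not tested beyond leaving each out.

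**Figure D5:**
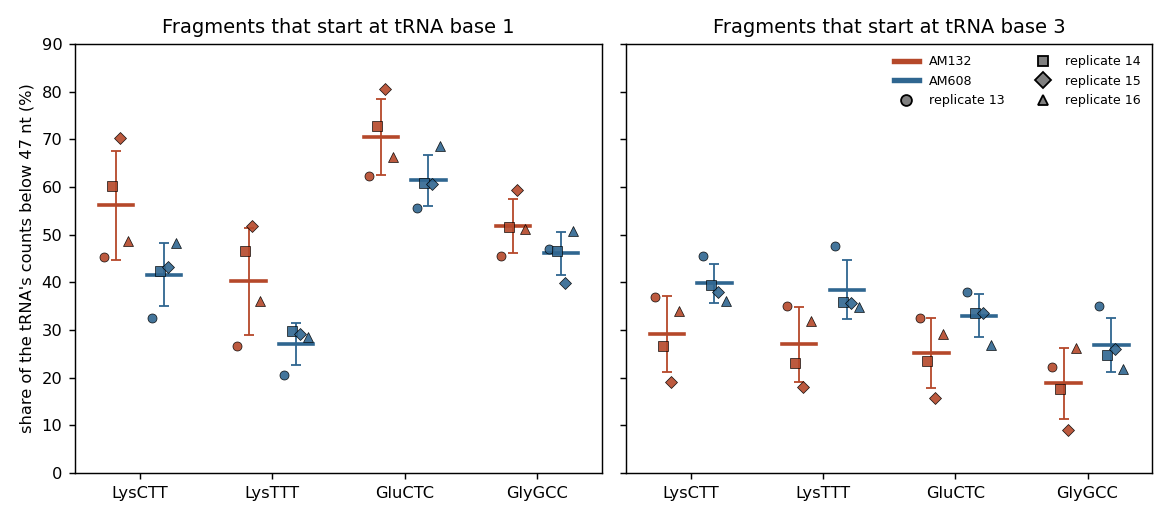
Share of the counts of 4 tRNAs, in fragments shorter than 47 nt, that start at base 1 (left) or base 3 (right) of the tRNA, in percent. Points are libraries of batch 3, thick bars means and thin bars SD (n = 4); AM132 15 is the highest library at base 1 and the lowest at base 3 in each of the 4 tRNAs.

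By fragment type, 51 of 61 tested 5′-halves had positive log2 fold changes (median 0.39), as did 81 of 107 5′-tRFs (median 0.34) and 13 of 15 3′-halves (median 0.25; 10 of 15 with scaling over both tables). Of 287 i-tRFs 188 were negative (median -0.18), and of 74 3′-tRFs 55 (median -0.22). By amino acid, lysine fragments had 41 positive and 79 negative members (median -0.24), glutamate 55 and 56, glycine 33 and 40 and histidine 29 and 14. Asparagine fragments were positive in 10 of 10 (0.12 to 0.56; 8 of 10 with scaling over both tables) and serine fragments negative in 10 of 12. None of these members passed in edgeR.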

How the data were processed

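Small RNA libraries were made from 200 ng of RNA (integrity number above 8.4) and sequenced on a NextSeq 500 (NEBNext kit for small RNA), per the labels. The authors deposited raw counts per mature miRNA and per tRF, unnormalised. The submitters' processing notes name FastQC; aligner and references are not given in the sources used here. Of 17051 tRFs 421 list a location on a chromosome above 19, up to 21, and the mouse has 19 autosomes. Genomic coordinates of tRFs were therefore not used. The tRNA names and base positions given here come from the same deposited annotation and rest on its reference.

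Counts were analysed in edgeR 4.0.16 (filterByExpr minimum 10, TMM, quasi-likelihood tests, Benjamini-Hochberg at 0.05), with DESeq2 1.42.0 as an alternative. Both methods' fold changes are log2, AM132 minus AM608. Single values were compared by exact permutation over 70 splits. Interval: Wilson, 95%; it covers counting error only, as reads here carry no molecular identifiers. No 2 libraries of the same group agreed within sampling noise (lowest chi-square per degree of freedom 5.96). Pairs across the groups were not compared. Mature miRNAs with identical counts (7 pairs) may share reads. miRNA genes were placed with GENCODE vM21.

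The members and lists were chosen with earlier results of these data known. Named were the 10 features of smallest p (mean of at least 10 CPM for miRNAs, 100 for tRFs) and the 5 most abundant. The cluster and miR-192/194 arms, 2 miRNAs per list, and 4 LysCTT and 4 HisGTG fragments were named too. Named after their values were seen were miR-211-5p, miR-204-3p, miR-34b-5p, miR-34c-5p, miR-375-3p, the miR-126a arms, miR-221-3p and miR-222-3p. So were the groupings of tRFs by first base and of long fragments by tRNA. Alternatives were other scalings, filters and fits, a replicate block and each library left out.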

Additional observations from a re-analysis of the deposited data

Results flagged for a closer look

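In groups of 4, a library is set apart when its gap to the nearest other exceeds 0.829 of the group's range; chance does this in about 1 in 20 groups, and it happened in 12 of 148 examined. AM608 16 stood high for miR-451a (gap 0.919 of the range), miR-144-3p (0.840), the GluCTC 5′-half tRF-35-87R8WP9N1EWJQ7 (0.853) and the HisGTG fragment tRF-31-PW5SVP9N15WV0 (0.892). AM608 15 stood low for miR-19b-3p (0.927) and for tRF-33-86J8WPMN1E8Y0E (0.888), and AM608 13 stood high for tRF-26-MIF91SS2P4B (0.925). AM132 13 stood high for miR-101a-3p (0.869) and let-7g-5p (0.847), AM132 14 for miR-1249-3p (0.848) and AM132 16 for miR-9-3p (0.890). AM132 16 was low in its share of 3′-halves (0.836), with 0.45% against 0.72 to 0.77%.

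The effect of AM132 differed between batch 3 and the mean of batches 1 and 2, by the test of that difference in edgeR, for 8 LysCTT fragments. The differences on the log2 scale were 8.02 for tRF-50-PSQP4PW3FJIKE7UMKKSW, 7.72 for tRF-49-PSQP4PW3FJIKE7UMKK2K, 9.18 for tRF-48-PSQP4PW3FJIKE7UMKK0D and 7.05 for tRF-47-PSQP4PW3FJIKE7UMKKN. They were 5.58 for tRF-50-PSQP4PW3FJI0E7UM8KSW, 7.82 for tRF-50-PSQP4PW3FJIKE7UM8KSW, 5.75 for tRF-49-PSQP4PW3FJI0E7UM8K2K and 5.46 for tRF-48-PSQP4PW3FJI0E7UM8K0D. The adjusted p was 0.0066 to 0.0421. The fragments overlap and count as 1 pattern.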

How the results depend on the processing

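The tRF counts of calls moved most. Against 0 higher and 0 lower in batch 3, 29 were higher and 4 lower with no low-count filter, 6 and 1 in DESeq2, 2 higher with a filter at 100 CPM and 8 higher in the fit of 32 libraries; leaving out each library gave 0 to 7 higher. For miRNAs the fit of 32 libraries called 1 lower. For the difference from batches 1 and 2, the 8 tRF calls became 21 higher and 1 lower with no filter and 0 to 12 without single libraries; for miRNAs DESeq2 called 1 lower, and single libraries left out gave 0 to 2 higher and 0 to 1 lower. The cause was not tested.

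Values near 0 changed sign: miR-212-3p was -0.01 with no filter, miR-29a-3p 0.03 and tRF-36-87R8WP9N1EWJQ7D -0.02 with scaling over both tables, and tRF-35-87R8WP9N1EWJQ7 0.00 with the CPM filter. With single libraries left out the ranges were -0.15 to 0.12 for miR-212-3p, -0.41 to 0.36 for miR-219a-5p, -0.02 to 0.05 for miR-192-5p, -0.00 to 0.08 for let-7f-5p, -0.99 to 0.02 for miR-10b-5p, -0.56 to 0.70 for miR-144-3p, -0.64 to 0.62 for miR-451a, -0.30 to 0.04 for tRF-35-87R8WP9N1EWJQ7, -0.16 to 0.14 for tRF-36-87R8WP9N1EWJQ7D, -0.01 to 0.12 points for the share of 3′-halves and -0.27 to 0.05 for the log2 ratio of tRF to miRNA counts. Without 1 library the exact permutation test cannot go below 0.0571. RLE scaling and DESeq2 kept the direction of all 79 single results they gave.

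Whether replicate numbers pair the samples was not clear. Correlations of same-numbered libraries were -0.08, 0.43, 0.28 and 0.31 for miRNAs and 0.35, 0.18, -0.03 and 0.01 for tRFs. Replicates 14, 15 and 16 matched their own number best for miRNAs, and replicates 13 and 14 for tRFs, while the others did not. With the replicate number as a block 0 miRNAs and 0 tRFs passed in edgeR. At an unadjusted p under 0.05 there were 45 and 69, against 30 and 60 without the block. In the blocked fit miR-212-3p (-0.02), miR-219a-5p (-0.00), miR-451a (0.02) and miR-144-3p (0.11) changed sign.

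Precision is limited by 4 libraries a group and, for tRFs, by totals far below those of miRNAs.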
